A study of Mus musculus with 6 samples.

Results

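The genes described here were on in extraembryonic endoderm (XEN) cells and near silent in embryonic stem (ES) cells, 76 out of 17710 genes listed in any of 6 mouse RNA libraries. A gene was taken when its mean over the 3 XEN libraries was at least 10 CPM (counts-per-million of the library total) and its counts summed over the 3 ES libraries were at most 10. Of 89 genes that met both limits, 6 unnamed gene models, 2 symbols ending in Rik and 5 genes set aside by name (Stra6, Enpep, Tfec, Ctsh and Ihh) were left out. The measured XEN and ES levels chose the 76 genes, so their difference between the groups is given as a description, and no test of it is read as a result.

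Embryonic stem cells of strain 129/Ola were kept on gelatin in N2B27-2iLIF, a serum-free medium with a pair of kinase inhibitors and the cytokine LIF. The XEN cells, of strain ICR, were kept in RPMI1640 with fetal bovine serum (FBS), Glut and BME. Total RNA of 3 libraries per group, named A, B and C, was sequenced on the BGISEQ-500 platform in a series on the metabolic and mitochondrial properties of XEN cells. Strain, medium and cell type differed together and cannot be told apart, and nothing in the labels says that the 3 libraries of a group were separate cultures, so p-values measure a spread that may be technical.

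Extraembryonic endoderm arises beside the epiblast in the blastocyst and forms the parietal endoderm, which lays down the thick basement membrane of the yolk sac, and the visceral endoderm, which absorbs nutrients and secretes plasma proteins. XEN cells are a self-renewing line type of this lineage. ES cells represent the pluripotent epiblast, and in that state genes of later lineages are mostly kept off. Pth1r, the receptor for parathyroid hormone and its related peptide, is a classical gene of parietal endoderm, while Foxa2, Rbp4 and Spink1 are known from visceral endoderm and other endoderm.

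Total expected counts were 20675311 to 22037793 per ES library and 21134720 to 22375875 per XEN library. All 16 parietal endoderm markers were at 1 CPM or more in XEN libraries, against 14 of 21 visceral endoderm markers, with Afp at 0.304 CPM and Cer1 at 0 but Ihh at 99.4, Hnf4a at 68.6 and Ttr at 27.1 CPM. In ES cells 12 of the parietal and 6 of the visceral markers also reached 1 CPM, so these counts alone separate the cell types poorly. Parietal markers summed to 36384 to 40831 CPM per XEN and 1677 to 1738 CPM per ES library. Most of the XEN sum was Sparc, Lamc1, Col4a1, Lama1 and Lamb1, at 7436, 7042, 6157, 5614 and 5592 CPM. These genes also stand on the marker list for extraembryonic endoderm in general, so the sum does not single out the parietal type. Visceral markers summed to 759.5 to 878.6 CPM per XEN and 1506 to 1575 CPM per ES library, the latter mostly Apoe and Cdh1, at 875.1 and 656.5 CPM in ES cells. Of 14 pluripotency markers 3 reached 1 CPM in XEN cells, and of 11 hepatocyte markers 0 did. The 3 were Klf4 at 163.3 CPM (373.5 CPM in ES cells), Tfcp2l1 at 27.5 CPM (934.3) and Utf1 at 5.14 CPM (50.4). Pth1r (parietal list) and Rbp4 and Spink1 (visceral list) are themselves among the 76 genes and carry no independent weight in this check.

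The 76 genes together took 4387, 4486 and 4510 CPM in XEN libraries A, B and C, and 4.57, 4.66 and 4.36 CPM in ES libraries A, B and C. These ES sums came from 94.5, 102.1 and 96.1 counts over all 76 genes, and the highest count of any of the genes in an ES library was 6. The lowest count of any of the genes in a XEN library was 158, a gap that the rule itself all but fixes. By the edgeR quasi-likelihood test with Benjamini-Hochberg adjustment at 0.05, all 76 were called higher in XEN cells, beside 42.0% of the 13581 genes tested; the same contrast chose them, and nothing is read from that count. In ES cells 9 genes had 0 counts in every library (Ugt2b34, S100g, H2-L, Ankrd1, Vcam1, Nepn, Tcf23, Fam163a and Ptprb), 29 had up to 3 summed counts and 38 had more. The authors' tables list no gene whose FPKM, the level scaled to transcript length and library size, rounded to below 0.01, so that in Ptprb, the longest of the genes at 0, 1 read per library could be unlisted.

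Most of the genes were expressed at modest levels. The mean XEN level was 10 to 20 CPM in 33 genes, 20 to 100 CPM in 32 and 100 CPM or more in 11, and the 10 highest took 53.97% of the summed CPM. Per length, the median gene was at 8.67 FPKM, against 18.05 FPKM for the 8574 other genes with at least 10 CPM in XEN cells. On the FPKM scale the highest were Pth1r at 301.2, Spink1 at 214.5, Hs3st1 at 202 and Glipr1 at 200.6.

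**Figure D1:**
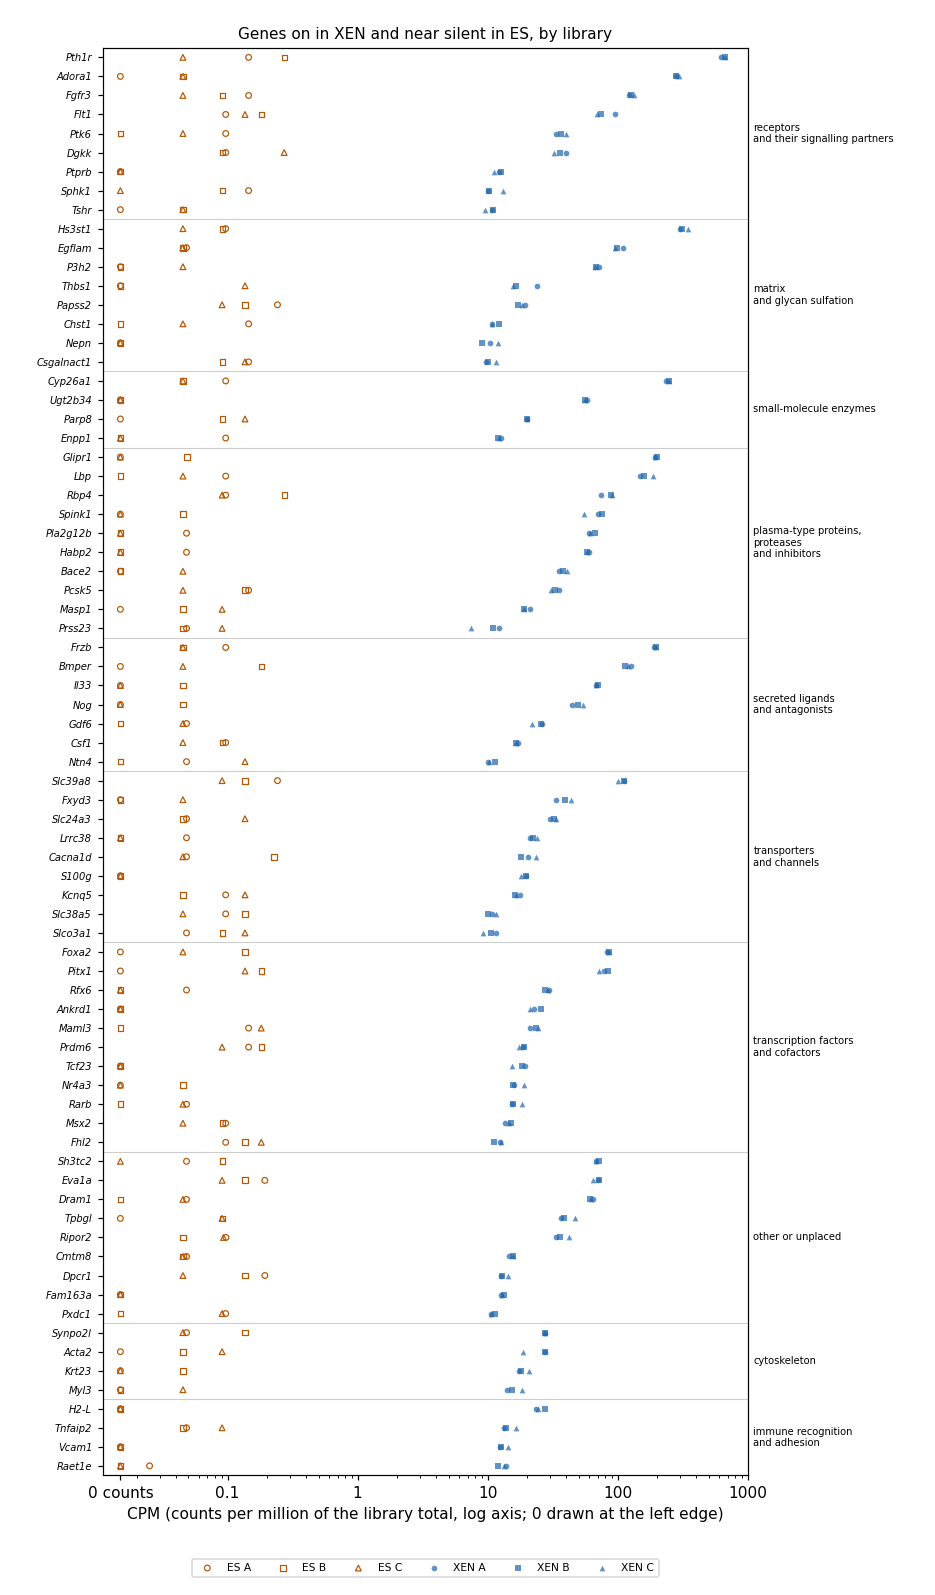
Level of the genes, 75 of the 76, in CPM (log axis) in ES libraries A, B and C (open symbols) and XEN libraries A, B and C (filled symbols), grouped by role; a count of 0 is drawn at the left edge. The XEN points of all genes drawn lie above the ES points, from 7.476 CPM for Prss23 in XEN C to 671.3 CPM for Pth1r in XEN B.

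The limits of the rule passed through a continuum. Just inside the XEN limit lay Prss23 at 10.24 CPM, Tshr at 10.37 and Csgalnact1 at 10.41, and just outside it Myh7 at 9.94, Plac8 at 9.77 and Slc34a2 at 9.61. At the ES limit, Pth1r, Rbp4, Slc39a8, Papss2 and Dgkk had 10 summed counts, while Pdzd3, Sema6d and Fads3 with 11 and Igsf11 and Wnt7b with 12 were outside. Igsf11 was outside although its XEN mean was 154.8 CPM.

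Among the 76 were 3 genes of retinoid handling. Retinol travels bound to Rbp4, the plasma retinol carrier, and its product retinoic acid acts through the nuclear receptors RARA, RARB and RARG and is broken down by the enzyme CYP26A1. Both Cyp26a1 and Rarb are textbook targets of retinoic acid, through a direct repeat of the half-site with a 5-base spacer (a DR5 element) close to the start. Their promoters are shown because that element could be found in both; the bases are the 250 before the outermost RefSeq start, 5′ to 3′, from build GRCm38.p6 (the files' own build is mm9), with the DR5 element in capitals. Cyp26a1 lies at chr19:37697558-37697807 on the plus strand and Rarb at chr14:16575477-16575726 on the minus strand.
Cyp26a1: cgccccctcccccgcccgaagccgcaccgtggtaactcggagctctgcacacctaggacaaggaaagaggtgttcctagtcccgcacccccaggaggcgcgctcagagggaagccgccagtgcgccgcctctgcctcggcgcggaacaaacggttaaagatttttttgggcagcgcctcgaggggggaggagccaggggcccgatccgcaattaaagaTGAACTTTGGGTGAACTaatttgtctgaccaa
Rarb: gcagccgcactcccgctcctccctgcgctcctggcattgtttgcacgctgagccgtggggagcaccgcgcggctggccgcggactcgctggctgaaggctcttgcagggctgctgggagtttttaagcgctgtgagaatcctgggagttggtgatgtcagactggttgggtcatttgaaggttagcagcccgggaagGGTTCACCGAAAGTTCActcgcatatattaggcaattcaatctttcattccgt

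The element ran from 32 to 16 bases before the start in Cyp26a1 and from 53 to 37 bases before it in Rarb. Searched on both strands as a DR5 retinoic acid response element, it was found in 2 of the 56 promoters at hand for the 76 genes, in 4 of 10337 promoters of all genes tested (Cfap45 and Syndig1 beside these) and in 0.0962% of 27025 promoters. The 2 were Cyp26a1 and Rarb, for which the element was already known, so no excess is read from these counts. A match is a description of letters, and which start the cells used was not measured.

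Cyp26a1 was at 236.1, 249.2 and 246.7 CPM in XEN libraries A, B and C, with 2, 1 and 1 counts in ES libraries A, B and C. Rbp4 was at 74.1, 87.8 and 89.5 CPM, with 2, 6 and 2 ES counts. Rarb was at 15.2, 15.6 and 18.3 CPM, with 1, 0 and 1 ES counts. In XEN cells Cyp26a1 was the highest of the 3 and Rarb the lowest, and Rbp4 was lower in library A than in the others. The rule had set aside by name Stra6, the cell-surface receptor for RBP4, which was at 311.8, 327.1 and 371 CPM in XEN and had 1 read in the ES libraries.

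The other retinoic acid receptors, the carriers Crabp1 and Crabp2 and the relatives of Cyp26a1 were lower in XEN cells or near 0 in both groups. They were named for their role and not by a rule. Other genes of retinol transport and uptake are not covered by this choice, and Stra6 was higher in XEN cells. The other retinoic acid receptors fell, by the edgeR quasi-likelihood test with Benjamini-Hochberg adjustment: Rara went from 93.3 ± 1.9 to 36 ± 0.94 CPM (SD, n = 3 libraries per group; log2 fold change -1.24 ± 0.03 SE, adjusted p = 1.538e-16) and Rarg from 31.3 ± 2.3 to 2 ± 0.44 CPM (-3.83 ± 0.17, adjusted p = 4.966e-18). Crabp1 and Crabp2, which carry retinoic acid inside the cell, fell, to 0.0912 CPM from 4.13 for the former and to 0.0754 CPM from 0.991 for the latter. Cyp26b1 and Cyp26c1, the relatives of Cyp26a1, stayed at or below 0.358 CPM in every library.

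Secreted ligands or antagonists were encoded by 8 of the genes, among them regulators of bone morphogenetic proteins (BMPs). Frzb, a secreted Wnt antagonist, was at 190.9, 197.6 and 196.4 CPM in XEN A, B and C, with 2, 1 and 1 ES counts. Bmper, an extracellular BMP regulator, was at 126.3, 114.2 and 119.3 CPM, with 0, 4 and 1 ES counts. The BMP antagonist Nog was at 44.4, 49.4 and 53.7 CPM with 0, 1 and 0 ES counts. Gdf6, a ligand of the BMP family, was at 26.2, 25.7 and 22 CPM. Frzb and Bmper were above Nog and Gdf6 in each XEN library on the CPM scale.

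Among BMP ligands that these antagonists can bind, Bmp2 was higher in XEN cells, at 0.496 ± 0.076 CPM in ES and 34.9 ± 1.9 CPM in XEN (SD, n = 3 libraries; log2 fold change 6.25 ± 0.12, edgeR adjusted p = 4.797e-21). Bmp4 fell from 8.49 to 0.152 CPM, and Bmp7 went from 19.8 to 0.0307 CPM (edgeR adjusted p = 1.316e-15 and 1.366e-18). Of 25 other tested ligands and antagonists of the TGF-beta family, 13 were higher in XEN, 10 lower and 2 did not pass, with a median log2 fold change of 0.46. Of all genes tested, 42.0% were called higher and 46.7% lower, and the median log2 fold change was -0.07. Bmp1, a procollagen protease, rose most, from 0.421 to 81.7 CPM, and Bmp6 followed at 0.308 and 34 CPM. The largest falls were of Gdf3, from 191.1 to 0.0315 CPM, and Lefty2, from 341.4 to 0.0762 CPM.

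The cytokines were Il33 and Csf1. Il33, an alarmin of the interleukin-1 family that resides in the nucleus, was at 68.3, 70.1 and 67.4 CPM in XEN libraries with 0, 1 and 0 ES counts. Its receptor chain Il1rl1 had 1 read in all 6 libraries, and the co-receptor Il1rap was lower in XEN (1.49 against 0.576 CPM, edgeR adjusted p = 0.0002228). Csf1, the growth factor of macrophages and their kin, was at 17.1, 16.6 and 16.6 CPM. Its receptor Csf1r was at 8.67, 10.7 and 6.86 CPM in XEN and at 0.0454 to 0.0484 CPM in ES libraries. The macrophage and blood cell markers Ptprc, Adgre1 and Lyz2 were at 0 in all 6 libraries, 2 of the 12 markers of that list (Csf1r and Cd68) reached 1 CPM in XEN cells, and the list summed to 9.98 to 13.5 CPM there against 291 to 307 CPM in ES cells, where Laptm5 at 280.5 CPM and Cd68 at 20.8 CPM made up nearly all of it. Of 59 other cytokines, chemokines and receptors tested, 20 were higher, 33 lower and 6 did not pass (median log2 fold change -0.96). Over all genes tested the shares were 42.0% higher and 46.7% lower. Ntn4, a netrin that binds laminin in basement membranes, was at 10.1, 11.4 and 10.2 CPM.

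Another 9 genes encode receptors or enzymes of receptor signalling. Pth1r, the highest of all 76 on either scale, was at 619.9, 671.3 and 661.1 CPM in XEN libraries A, B and C, with 3, 6 and 1 ES counts. Its ligand gene Pthlh had 0 counts in the XEN libraries and 0.0618 CPM on average in ES cells. Adora1, an adenosine receptor that couples to inhibitory G proteins, was at 280.8, 279.6 and 293.5 CPM, with 0, 1 and 1 ES counts; part of its counts were not whole numbers, so reads were shared with other models. Tshr, the thyrotropin receptor, was near the limit at 10.7, 10.9 and 9.46 CPM. The genes of its ligand's subunits, Tshb and Cga, were at or below 0.0473 CPM in XEN libraries. Of 85 other G protein-coupled receptors tested, 37 were higher, 43 lower and 5 did not pass (median log2 fold change -0.15), with Lpar3, a receptor for lysophosphatidic acid, at 0.309 CPM in ES and 68.4 CPM in XEN cells. Among all genes tested, 42.0% were higher and 46.7% lower.

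The receptor tyrosine kinases in the set were Fgfr3 and Flt1. Fgfr3 was at 121.6, 127 and 133.9 CPM with 3, 2 and 1 ES counts. Flt1, the vascular endothelial growth factor (VEGF) receptor 1, was at 94.9, 74.8 and 68.5 CPM with 2, 4 and 3 ES counts, and stood highest in XEN A. Kdr, the main signalling receptor for VEGF, rose from 0.617 ± 0.102 to 4.27 ± 0.52 CPM (edgeR adjusted p = 3.603e-11), and the ligand Vegfa rose from 35.6 ± 2.9 to 71.2 ± 4.1 CPM (SD, n = 3 libraries; edgeR adjusted p = 4.868e-13). Of 35 other receptor tyrosine kinases tested, 21 were higher, 13 lower and 1 did not pass (median log2 fold change 1.13). For all genes tested, 42.0% were higher and 46.7% lower. The kinases that were higher included Pdgfra, a defining gene of the lineage, at 0.711 CPM in ES and 546.4 CPM in XEN, and Mertk at 2.46 and 79.2 CPM. Fgfr1 went the other way, from 47.9 ± 1.1 to 2.68 ± 0.43 CPM (log2 fold change -4.02 ± 0.13, edgeR adjusted p = 3.064e-20).

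Flt1, Ptprb and Vcam1 are also known from endothelium. Ptprb, a receptor phosphatase, was at 12.2, 12.6 and 11.2 CPM, and Vcam1, an adhesion molecule, at 12.4, 12.6 and 14.3 CPM, both with 0 ES counts. Of 10 endothelial markers, 4 reached 1 CPM in XEN cells: Tek at 82.5 CPM, Cdh5 at 5.29, Kdr at 4.27 and Esam at 1.49. Pecam1 was at 0.213 CPM, Sox18 at 0.0149 CPM and Emcn at 0, and the whole list summed to 90.2 to 97.7 CPM in XEN against 116.8 to 122.6 CPM in ES libraries. Most of the XEN sum was Tek, and most of the ES sum was Pecam1, at 103.8 CPM there. The part of such cells in the values of the 3 genes was not tested. The VCAM1-binding integrin chain Itga4 was lower in XEN cells, at 0.119 against 2.56 CPM.

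The remaining signalling genes were 3 enzymes. Ptk6, a non-receptor tyrosine kinase, was at 33.3, 36.5 and 39.9 CPM, Dgkk, a diacylglycerol kinase, at 40, 35.8 and 32.2 CPM, and Sphk1, a sphingosine kinase, at 9.97, 10.2 and 13.1 CPM. Sphk1 was highest in XEN C, and Dgkk was lowest there.

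A further 11 genes encode transcription factors or cofactors, and Foxa2 and Pitx1 were the highest. Foxa2, a pioneer factor of endoderm, was at 82.3, 85.6 and 85.3 CPM with 0, 3 and 1 ES counts. Pitx1, a homeobox factor, was at 77.6, 83.4 and 71.4 CPM with 0, 4 and 3 ES counts. Rfx6, a winged-helix factor of pancreas and gut endoderm, followed at 29.5, 27.4 and 29.2 CPM with 1, 0 and 0 ES counts. Ankrd1, a cofactor and known target of the YAP coactivator, was at 22.7, 25.7 and 21.2 CPM with 0 ES counts. Maml3 (a Notch coactivator), Prdm6, Tcf23, the orphan nuclear receptor Nr4a3, Rarb, the homeobox factor Msx2 and the LIM cofactor Fhl2 lay between 12 and 23 CPM on average.

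Of 25 other endoderm transcription factors tested, 15 were higher in XEN cells, 9 lower and 1 did not pass, with a median log2 fold change of 3.44; over all genes tested 42.0% were higher and 46.7% lower. Sox7 went from 0.246 ± 0.101 to 389.2 ± 12.3 CPM (SD, n = 3 libraries; log2 fold change 10.72 ± 0.23, edgeR adjusted p = 7.164e-27) and Gata6 from 0.295 ± 0.038 to 324 ± 5.8 CPM (10.21 ± 0.08, edgeR adjusted p = 3.426e-27). Both had more than 10 ES counts, 16 and 19, and so are not among the 76. Nr5a2 fell from 127.1 to 0.349 CPM. Of 27 other nuclear receptors tested, 9 were higher, 16 lower and 2 did not pass (median log2 fold change -0.45), with Hnf4a rising from 1.47 to 68.6 CPM and Esrrb, a pluripotency factor, falling from 1033 to 0.352 CPM. No Hox gene met the rule; of 13 tested, 9 were higher and 4 lower.

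The matrix group held 8 genes that act on the extracellular matrix or on sulfated glycans. Hs3st1, which adds the 3-O-sulfate of the antithrombin-binding site of heparan sulfate, was at 298.6, 313.1 and 344 CPM with 2, 2 and 1 ES counts. Egflam, the matrix protein pikachurin, was at 109.9, 98.7 and 95.2 CPM with 1 count in each ES library. P3h2, a prolyl 3-hydroxylase of basement membrane collagen, was at 71.3, 67.9 and 67.2 CPM with 0, 0 and 1 ES counts. Thbs1, thrombospondin-1, was at 23.9, 16.6 and 15.7 CPM and stood higher in XEN A than in the others.

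Papss2, which makes the sulfate donor of these reactions, was at 19.3, 17 and 18.2 CPM, and its relative Papss1 rose from 24.6 ± 1.2 to 59.5 ± 1.9 CPM (SD, n = 3 libraries; edgeR adjusted p = 2.888e-16). Chst1, Csgalnact1 and Nepn, a sulfotransferase, a chondroitin sulfate enzyme and a leucine-rich matrix protein, averaged 11.3, 10.4 and 10.5 CPM. Of the other 3-O-sulfotransferases, Hs3st3a1 reached 2.29 CPM, Hs3st3b1 went from 7.59 to 9.05 CPM (edgeR adjusted p = 0.003545) and Hs3st6 was at 0.0596 CPM in XEN cells. Col4a1 and Col4a2, the collagen chains on which P3h2 acts, reached 6157 and 2910 CPM in XEN cells from 5.11 and 1.96 CPM in ES cells. Of the 27 collagens and laminins tested, these 2 included, 13 were higher, 10 lower and 4 did not pass (median log2 fold change 0.54). Among all genes tested the shares were 42.0% higher and 46.7% lower.

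In all, 10 genes encode proteins known from plasma or secretions, proteases or their inhibitors. Glipr1, a cysteine-rich secretory protein family member, was at 191.6, 200 and 193.5 CPM with about 1 read in the ES libraries, from counts that were not whole in some libraries. Lbp, the lipopolysaccharide-binding protein of plasma, was at 147.8, 158.1 and 186 CPM with 2, 0 and 1 ES counts. Spink1, a trypsin inhibitor, was at 70.7, 75.7 and 55.3 CPM with 0, 1 and 0 ES counts; its short transcript put it second of the 76 per length. Lbp was highest and Spink1 lowest in XEN C.

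Pla2g12b, a secreted phospholipase-like protein, averaged 62.9 ± 3.7 CPM, and Habp2, a plasma protease that binds hyaluronan and cleaves clotting factors, 58.6 ± 0.9 CPM (SD, n = 3 libraries). Bace2, Pcsk5, Masp1 and Prss23, all proteases, averaged 37.6, 33, 19.7 and 10.2 CPM. MASP1 starts the lectin pathway of complement, and PCSK5 cleaves proproteins. The counts that follow stand beside 42.0% higher and 46.7% lower over all genes tested. Of 23 other complement and coagulation genes tested, 14 were higher and 9 lower (median log2 fold change 1.35), with the anticoagulant receptor Thbd going from 0.6 to 367.2 CPM and the plasminogen activator Plat from 0.872 to 200.7 CPM. Of 60 other membrane and secreted proteases, 32 were higher, 27 lower and 1 did not pass. These include Ctsh at 598.2 CPM and Enpep at 201.5 CPM in XEN cells, which met both limits and were set aside by name. Of 18 other serine protease inhibitors, 8 were higher and 10 lower: Serpinh1, the collagen chaperone, went from 25.5 to 2337 CPM.

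Among the 76, 9 genes encode transporters and channels or their regulators. Slc39a8, a zinc and manganese importer, was the highest at 112.3, 111.6 and 100.7 CPM with 5, 3 and 2 ES counts. Fxyd3, a small regulator of the sodium pump, was at 33.2, 39.1 and 43.7 CPM, which was 93.1 FPKM on average, and S100g, the calcium carrier calbindin-D9k, at 19.7, 19.7 and 18 CPM with 0 ES counts. Slc24a3, Lrrc38, Cacna1d, Kcnq5, Slc38a5 and Slco3a1 averaged 32, 22.5, 20.6, 16.8, 10.8 and 10.5 CPM. Slc24a3 exchanges sodium for calcium and potassium, Cacna1d and Kcnq5 are calcium and potassium channel subunits, and Slc38a5 carries amino acids. Of 248 other solute carriers tested, 118 were higher, 104 lower and 26 did not pass (median log2 fold change 0.10), and of 84 other ion channels and aquaporins 30 were higher, 49 lower and 5 did not pass (-1.29). Over all genes tested, 42.0% were higher and 46.7% lower. Slco2a1, a prostaglandin transporter, went from 1.55 to 179.8 CPM, and Kcng1, a modifier subunit of potassium channels, from 0.184 to 125.8 CPM.

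Besides Cyp26a1, the enzymes were Ugt2b34, Parp8 and Enpp1. Ugt2b34, a glucuronosyltransferase, was at 58, 55.4 and 55.5 CPM with 0 ES counts in all libraries. Its relative Ugt2b35 was at 0.134 to 0.224 CPM in XEN libraries. Parp8, a mono-ADP-ribosyltransferase, was at 20, 20.2 and 19.9 CPM, and Enpp1, an ectoenzyme that makes pyrophosphate, at 12.7, 11.9 and 12.2 CPM. Of 34 other glucuronosyltransferases, cytochromes P450, sulfotransferases and aldo-keto reductases, 16 were higher and 18 lower (median log2 fold change -0.60). The shares over all genes tested were 42.0% and 46.7%.

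The cytoskeletal genes are known from muscle and epithelium. Synpo2l, an actin-associated protein of the Z-disc, was at 27.8, 27.5 and 27.5 CPM. Acta2, smooth muscle actin, was at 27.5, 27.6 and 18.6 CPM with 0, 1 and 2 ES counts and was lowest in XEN C. Tagln, another smooth muscle gene, was at 12.1, 11.1 and 8.42 CPM in XEN A, B and C, also lowest in C, whereas Myh11 was at or below 0.0473 CPM there. Of 12 fibroblast and mesenchyme markers, Acta2 itself and Pdgfrb reached 1 CPM in XEN cells; Lum and Fap were at 0, and the list summed to 34.9, 36.8 and 25.9 CPM in XEN A, B and C. The part of such cells in the Acta2 level was not tested. The copies Acta1, Actg2 and Actc1 were at or below 2.15 CPM in XEN libraries, and reads of the near-identical actins could be split among them.

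Krt23, an intermediate filament keratin, was at 17.5, 18 and 20.7 CPM and Myl3, a myosin light chain, at 14.1, 15.4 and 18.2 CPM. Both were highest in XEN C. Of 17 other keratins and intermediate filaments, 5 were higher and 12 lower, with the simple-epithelium keratin Krt18 going from 5.2 to 439.1 CPM. Among all genes tested, 42.0% were higher and 46.7% lower.

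Genes of immune recognition and adhesion were few and low. H2-L, a classical class I molecule, was at 23.5, 27.6 and 24.5 CPM with 0 ES counts. Class I genes are near copies that differ by strain, and the lines were of strains 129/Ola and ICR, so its level is uncertain. Its relatives H2-D1 and H2-K1 rose, H2-D1 from 3.55 ± 0.38 to 48.4 ± 4.2 CPM, and H2-K1 to 93.5 ± 4.1 CPM from 3.14 ± 0.16 (SD, n = 3 libraries; edgeR adjusted p = 6.384e-20 and 9.273e-24). H2-Q4 went from 5.23 to 4.31 CPM and did not pass (edgeR adjusted p = 0.3574). Raet1e, a ligand of an activating receptor of natural killer cells, was at 13.9, 12 and 13.3 CPM, with fractional counts shared among its copies. Raet1a reached 4.9 CPM, and Raet1b and Raet1c stayed at or below 0.116 CPM in XEN libraries. Tnfaip2 was at 13.3, 13.8 and 16.4 CPM.

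The 9 remaining genes have less settled roles. Sh3tc2, Eva1a and Dram1 were the highest, at 69.1 ± 1.7, 68.7 ± 3.6 and 62.4 ± 1.9 CPM (SD, n = 3 libraries). EVA1A and DRAM1 are membrane proteins linked to autophagy, and SH3TC2 acts in endosomal recycling. Tpbgl, Ripor2, Cmtm8, Dpcr1, Fam163a and Pxdc1 lay between 10.9 and 40.6 CPM.

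The families to which the 76 genes belong did not move as blocks. Across 20 families tested without the 76 genes, the share higher in XEN cells ran from 0 of 3 Rhox and Xlr genes to 9 of 13 Hox genes. Most families held members on both sides. Nothing about a family is read from its share, since 42.0% and 46.7% of all genes tested were called higher and lower.

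**Figure D2:**
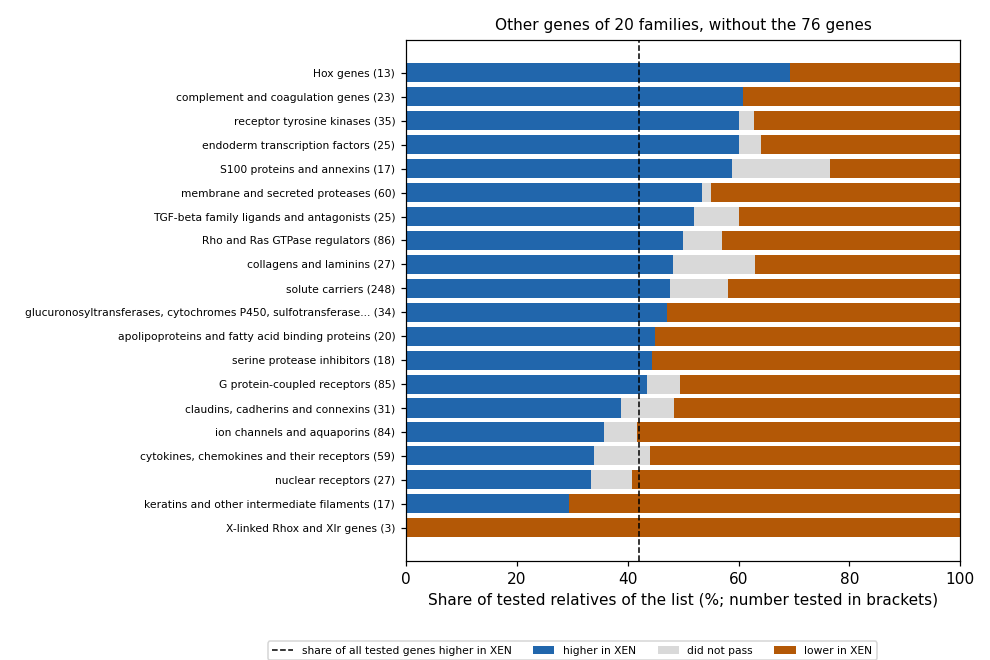
Share of the tested genes of each of 20 families (without the 76 genes) that were higher, lower or past no threshold in XEN cells by edgeR at an adjusted p of 0.05, with the number tested in brackets; the dashed line is the share higher over all genes tested. The Hox list, with 9 of 13 higher, is at the top, and the 3 Rhox and Xlr genes are at the bottom. The apolipoprotein list took in every symbol starting with Apo, such as Apobec2.

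The 76 genes varied somewhat more among the XEN libraries than other genes did. Their median coefficient of variation (CV, the SD over the mean of 3 libraries) was 6.91%, against 4.22% for the 8574 other genes of at least 10 CPM; with the variance expected from counting taken off, the medians were 4.92% and 2.82%. The gap was present at each level: 7.44% against 6.04% at 10 to 20 CPM, 7.41% against 4.27% at 20 to 100 CPM and 4.82% against 3.34% at 100 CPM or more. With 3 libraries the CV of a single gene is imprecise, and the difference was not tested.

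A CV over 15% was found in 6 genes, or 7.9% of the 76 against 1.58% of the other genes. They were Prss23 at 24.1%, Thbs1 at 24%, Acta2 at 20.9%, Flt1 at 17.4%, Spink1 at 15.8% and Sphk1 at 15.8%. Thbs1 and Flt1 were highest in XEN A and lowest in XEN C. Prss23, Acta2 and Spink1 were also lowest in XEN C, and Sphk1 was highest there. XEN C thus gave the lowest or the highest value in each of the 6. With 3 libraries a given library is often the lowest or the highest, so nothing is read from this. At the other end, Synpo2l varied by 0.48% and Parp8 by 0.63%, under the counting error alone. XEN A gave the lowest value in 42.1% of the 76 genes, XEN B in 22.4% and XEN C in 35.5%, against 38.1%, 28.4% and 33.6% of the other genes. The highest value lay in XEN A, B and C in 32.9%, 31.6% and 35.5% of the 76 genes, against 35.7%, 36.6% and 27.75% of the other genes.

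**Figure D3:**
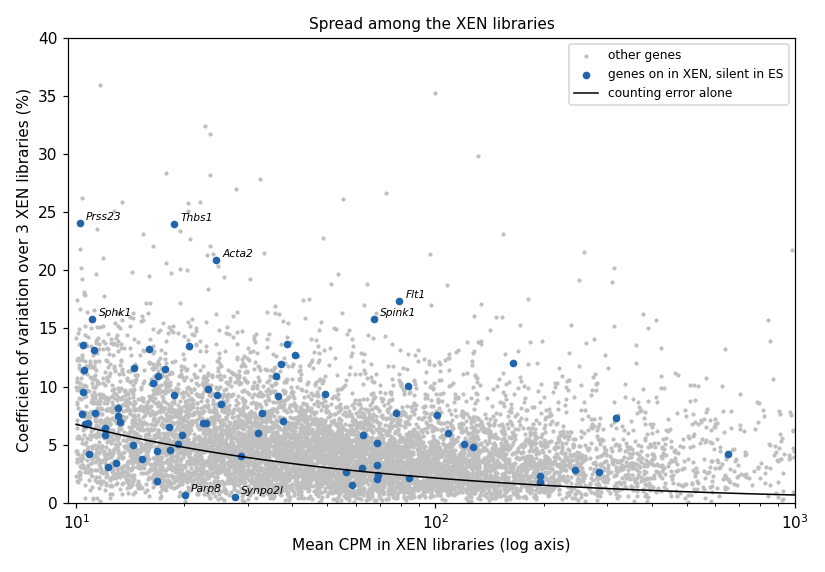
Coefficient of variation over the 3 XEN libraries (%) against mean XEN level (CPM, log axis) for the 76 genes (blue) and other genes of 10 to 1000 CPM (grey; those above are not drawn), with the error from counting alone as a line. Prss23, Thbs1 and Acta2 lie over 20%, and Synpo2l and Parp8 lie near 0.

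By the cellular component terms in the authors' tables, the products of the 76 genes were often outside the cell. Of the 69 annotated genes, 22 (31.9%) had a term for the extracellular region or space, against 6.92% of the 11228 annotated genes tested and 5.01% of those with at least 10 CPM in XEN cells. Plasma membrane terms were on 18 (26.1%), against 15.5% of annotated genes tested, and nuclear terms on 17 (24.6%), against 33.6%. None had a mitochondrial term, which 1304 (11.6%) of the annotated genes tested had.

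The RefSeq promoter table (GRCm38.p6) held 56 of the 76 genes, and the window from 250 bases before to 50 after the outermost start was read. CpG pairs are depleted in most of the mammalian genome but kept in the promoters of widely expressed genes. The ratio of observed to expected CpG had a median of 0.542 in the 56 promoters, against 0.766 in 10337 promoters of all genes tested, and 27 of 56 (48.2%) were under 0.5, against 19.2%. Over all 27025 promoters in the table, silent genes included, the median was 0.389. When every listed start of a gene was used instead of the outermost, the medians were 0.67 over 85 starts and 0.747 over 13265 starts, so the difference shrank from -0.224 to -0.077. The genes with the lowest and the highest ratio over the 250 bases before the start alone are shown to give a view of this, Ugt2b34 at chr5:86906938-86907187 on the minus strand and Dram1 at chr10:88357076-88357325 on the minus strand, each with the 250 bases before the start and CpG pairs in capitals.
Ugt2b34: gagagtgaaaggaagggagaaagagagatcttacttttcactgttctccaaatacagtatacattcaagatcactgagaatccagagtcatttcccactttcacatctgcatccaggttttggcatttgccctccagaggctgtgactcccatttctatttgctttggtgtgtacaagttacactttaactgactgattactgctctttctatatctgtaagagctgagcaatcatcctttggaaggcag
Dram1: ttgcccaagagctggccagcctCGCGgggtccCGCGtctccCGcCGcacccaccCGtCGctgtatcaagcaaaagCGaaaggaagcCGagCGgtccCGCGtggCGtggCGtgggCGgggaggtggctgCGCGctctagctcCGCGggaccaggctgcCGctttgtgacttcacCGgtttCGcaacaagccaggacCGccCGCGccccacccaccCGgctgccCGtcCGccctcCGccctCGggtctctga

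Ugt2b34 had 0 CpG pairs in these 250 bases and Dram1 had 31. In XEN cells Ugt2b34 was at 56.3 CPM and Dram1 at 62.4 CPM on average, so both kinds of promoter belonged to genes of like level. The ES counts were 0, 0 and 0 for Ugt2b34 and 1, 0 and 1 for Dram1.

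**Figure D4:**
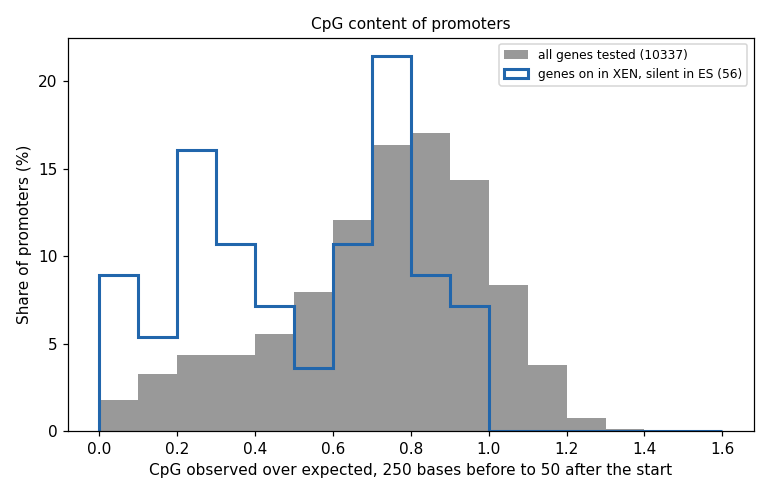
Distribution of the CpG observed over expected ratio in promoter windows (250 bases before to 50 after the outermost start) of the 56 genes with a promoter at hand (blue outline) and of 10337 genes tested (grey), as a share of each set (%). The blue outline has a group under 0.5, which holds 48.2% of its promoters, and another near 0.7 to 0.8.

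Short motifs of factors known in this lineage were counted in the same windows, on both strands. The GATA motifs AGATAA or TGATAA were in 14.3% of the 56 promoters, against 9.37% of promoters of all genes tested and 18.9% of all promoters in the table. The SOX motifs AACAAT or ACAAAG were in 28.6%, against 17.9% and 27.2%, and TATAAA was in 16.1%, against 6.74% and 14.2%. The shares of the 56 promoters were thus above those of the genes tested for all 3 motifs; beside the whole table they were lower for GATA and higher for SOX and TATA. Of 40 matches of these motifs and DR5 in the 56 promoters, 1 pair of different motifs overlapped. Fhl2 at chr1:43196762-43197011 on the minus strand and Nepn at chr10:52391358-52391607 on the plus strand are shown because each holds GATA and TATA motifs, in capitals, within the 250 bases before the start.
Fhl2: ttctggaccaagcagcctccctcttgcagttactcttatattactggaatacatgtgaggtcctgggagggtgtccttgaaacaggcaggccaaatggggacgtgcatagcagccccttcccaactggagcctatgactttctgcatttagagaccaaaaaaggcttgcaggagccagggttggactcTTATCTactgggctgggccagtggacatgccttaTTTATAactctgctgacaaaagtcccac
Nepn: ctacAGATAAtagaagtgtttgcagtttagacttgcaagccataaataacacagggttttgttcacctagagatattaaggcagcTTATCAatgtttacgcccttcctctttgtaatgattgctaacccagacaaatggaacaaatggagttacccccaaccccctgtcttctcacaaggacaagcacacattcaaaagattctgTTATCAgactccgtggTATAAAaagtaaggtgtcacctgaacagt

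Nepn, with 3 GATA motifs and 1 TATA motif, was at 10.5, 9.04 and 11.9 CPM in XEN libraries and at 0 in ES libraries. Fhl2, with 1 of each, was at 12.4, 11.1 and 12.5 CPM with 2, 3 and 4 ES counts. A match says only that the letters are there.

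On the chromosomes, 75 of the 76 genes could be placed in RefSeq order. Chromosome 10 held 9 of them (11.8%, against 4.82% of genes tested) and chromosome 19 held 8 (10.5%, against 3.56%), while 3 were on X and 0 on Y. A single pair of the 76 were next to each other, Pth1r and Myl3 on chromosome 9, and their mean XEN levels were 650.7 and 15.9 CPM. Whether the counting used strand is not given in the sources used here, so reads running from a gene into its neighbour could not be told apart.

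Genes next to the 76 were also often higher in XEN cells. Of 88 tested neighbours outside the set, 60 (68.2%) were higher and 22 (25%) lower by edgeR at an adjusted p of 0.05, with a median log2 fold change of 0.67. Over all genes tested, 42.0% were higher and 46.7% lower. Around the other genes called higher, 51.3% of 6561 tested neighbours were higher and 37.6% lower, with a median of 0.19; the difference between these shares was not tested. Those other genes were not matched to the 76 by level or size of change. Neighbours named here were chosen after their values were seen. The highest in XEN cells was P4ha1, a collagen prolyl hydroxylase beside Pla2g12b, which rose from 60.6 to 1310 CPM. Ctgf, beside Enpp1, rose from 9.45 to 690.3 CPM, and Emb, beside Parp8, from 15.2 to 444.5 CPM. In the other direction, Rasgrp1, beside Thbs1, fell from 29.2 to 0.166 CPM, and Cmah, beside Ripor2, fell from 362.9 to 35.6 CPM.

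**Figure D5:**
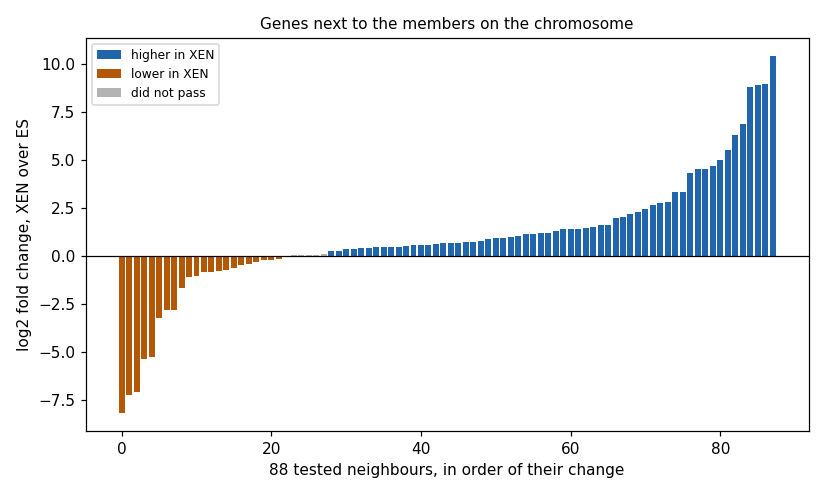
Fitted log2 fold change (XEN over ES, edgeR) of the 88 tested genes that lie next to one of the 76 genes, in order of size and coloured by the call at an adjusted p of 0.05. The blue bars, higher in XEN cells, number 60 and the orange bars, lower, 22.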

How the data were processed

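The authors deposited 1 table per library with RSEM expected counts, not all whole numbers, and FPKM values per gene. Per the submitters' processing notes the build was mm9 and the tools were Bowtie2, RSEM and DESeq2, with versions not given in the sources used here. Groups came from the sample titles. Where a table did not list a gene its count was set to 0, which affects rows whose FPKM rounded to below 0.01. CPM is the deposited expected count over the sum of the table, without composition factors. Expected counts were rounded, filtered by filterByExpr, scaled by TMM (factors from 0.9512 to 1.05) and tested by the edgeR 4.0.16 quasi-likelihood F test in R 4.3.3, on the group alone, with p adjusted by Benjamini-Hochberg over 13581 genes and a threshold of 0.05. The steps were tested on simulated data. The common coefficient of variation was 4.75%. Fold changes have standard errors from log2 CPM (prior count 2) of the deposited libraries; errors of CPM are SDs.

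The 76 genes, the family and marker lists and the roles were chosen with earlier results of these data known, so the lists are no independent evidence. Named in full were the 20 highest by FPKM, genes with 0 ES counts and 50 CPM or more, and the 5 most and 3 least variable. Of the genes at the limits, the text gives the nearest. From each list the rule named up to 2 risers and 2 fallers, those that changed most among genes past the threshold whose mean over all libraries was 5 CPM or more; the text gives a part of them. A few genes are not reported here. Ligands, receptors and near copies of the 76 genes were named for their role, after values were seen. Library letters were not treated as pairs: the correlations of deviations of same-lettered ES and XEN libraries were 0.0327, 0.00761 and 0.0199. Alternatives were other scalings, filters, DESeq2 1.42.0, a replicate block, leaving out each library, other limits of the rule and other promoter windows; using every start of a gene was added after the data were seen.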

Additional observations from a re-analysis of the deposited data

How the results depend on the processing

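The number of genes depended on the limits of the rule: 126 with a XEN mean of at least 5 CPM, 43 with at least 20 CPM, 38 with at most 3 summed ES counts and 135 with at most 30, against 76. Leaving out 1 library gave 71 to 76 genes, with the ES limit lowered in proportion when an ES library was left out. Under that lowered limit the set without ES library A lost Pth1r, Rbp4 and Flt1 among others. Under a fixed limit of 10 counts, leaving out an ES library could lose no gene. Scaling by TMM gave 79, a minimum of 10 CPM in every XEN library 69, and no exclusions by name 89. With every listed start of a gene, an alternative chosen after seeing the data, the CpG difference was -0.077 in place of -0.224; the cause was not tested. With the library letter as a replicate block, 5682 genes were higher and 6318 lower in XEN cells, against 5707 and 6337, and no call of a gene named from a list changed. Upper-quartile factors moved the median log2 fold change of all genes from -0.07 to -0.21.

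Family counts moved by over 1.5 times where the filter changed the number of genes tested. Without a filter, 9 Hox genes (main value 4), 7 Rhox and Xlr genes (3), 80 ion channels (49), 51 proteases (27) and 18 collagens and laminins (10) were lower, and 17 apolipoproteins and fatty acid binding proteins (9) were higher. With a mean of at least 1 CPM, 5 Hox genes (9) were higher, and 1 Rhox or Xlr gene, 31 ion channels and 21 cytokine genes (33) were lower. Leaving out 1 library gave 3 to 5 lower Rhox and Xlr genes, with 5 without ES A or XEN C. All 900 values of the 75 genes named from lists kept their direction and their side of 0.05 under these alternatives. At this depth 1 read in a library is about 0.05 CPM, so the order of the ES counts of the 76 genes is not resolved.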
